A study of Homo sapiens with 72 samples.

Results

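The core circadian clock genes NR1D1, NR1D2, PER1, PER2, PER3, CRY1, CRY2, BHLHE40, DBP and CIART were followed across 72 wells of U2OS cells, a human osteosarcoma line that is widely used as a cell model of the clock. These 10 genes, of 60371 genes listed in the files, were named as a set because they are parts of the clock and they were chosen by the level of NR1D1 with homoharringtonine, already known to be far above DMSO in these wells. The levels of the 10 genes with homoharringtonine therefore stand as a description, given without p-values, and nothing is read from their counts of calls. Cells in 24-well plates were treated for 12 h with DMSO, the vehicle (18 wells), or with 100, 1000 or 10000 nM of 1 of 6 compounds (3 wells per compound and dose), and poly(A) RNA was sequenced from each well. The compounds were triptolide, an inhibitor of transcription, homoharringtonine, an inhibitor of translation, the ABL kinase inhibitor nilotinib, the AKT inhibitor MK-2206, the JNK inhibitor pyrazolanthrone and the alpha-glucosidase inhibitor miglitol. The labels give no genotype beyond the cell line and do not say whether the wells came from separate cultures, so the p-values measure the spread between wells, which may be technical.

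In the clock, CLOCK and BMAL1 bind E-boxes and activate the PER and CRY genes, whose proteins return to the nucleus and repress the same activators. A second loop joins it through the nuclear receptors REV-ERB alpha and beta (NR1D1 and NR1D2), which repress BMAL1 and compete with the ROR receptors that activate it. BHLHE40 and CIART also repress CLOCK and BMAL1, and DBP activates genes through D-boxes. Several of these mRNAs turn over quickly and are also induced by serum, stress and kinase signals without the clock, PER1 being the usual example.

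Promoter sequences are shown for the members whose levels moved most alike (NR1D1 and PER1) and for those with the most clock motifs (NR1D2 and CIART). The 250 bases before a RefSeq transcription start in GRCh38.p14 are given 5′ to 3′ on the gene's strand, with capitals marking an E-box (CACGTG), an E-prime box (CACGTT), a D-box (TTATGTAA) or a ROR element (TGGGTCA), read on either strand. The NR1D1 stretch is chr17:40100590-40100839 on the minus strand, PER1 is chr17:8152405-8152654 on the minus strand, NR1D2 is chr3:23945871-23946120 on the plus strand and CIART is chr1:150282304-150282553 on the plus strand.
NR1D1: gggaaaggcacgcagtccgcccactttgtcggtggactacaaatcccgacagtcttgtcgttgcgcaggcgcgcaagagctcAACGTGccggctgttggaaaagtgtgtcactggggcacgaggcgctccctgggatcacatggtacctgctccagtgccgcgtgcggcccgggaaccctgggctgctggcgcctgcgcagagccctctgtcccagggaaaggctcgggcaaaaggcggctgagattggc
PER1: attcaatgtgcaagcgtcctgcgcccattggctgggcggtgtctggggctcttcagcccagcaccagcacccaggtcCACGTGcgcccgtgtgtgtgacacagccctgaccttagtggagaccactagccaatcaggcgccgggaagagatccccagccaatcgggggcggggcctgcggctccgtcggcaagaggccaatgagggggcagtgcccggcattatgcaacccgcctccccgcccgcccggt
NR1D2: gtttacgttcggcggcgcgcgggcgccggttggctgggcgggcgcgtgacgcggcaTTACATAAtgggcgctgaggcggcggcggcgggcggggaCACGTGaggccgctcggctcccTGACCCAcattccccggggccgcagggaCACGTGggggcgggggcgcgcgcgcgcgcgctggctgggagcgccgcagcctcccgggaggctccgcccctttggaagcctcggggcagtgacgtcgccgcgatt
CIART: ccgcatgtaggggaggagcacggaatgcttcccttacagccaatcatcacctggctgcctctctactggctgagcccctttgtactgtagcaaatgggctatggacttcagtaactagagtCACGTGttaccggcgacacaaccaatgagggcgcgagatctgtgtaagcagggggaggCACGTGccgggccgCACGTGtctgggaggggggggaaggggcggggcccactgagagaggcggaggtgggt

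All 10 genes had a RefSeq promoter window of 250 bases before and 50 bases after a start, and NR1D2, PER3 and CRY2 had more than 1. The NR1D2 window not shown (chr3:23945036-23945335) held 0 of the motifs searched, as did 1 window each of PER3 and CRY2. A gene was counted if any of its windows held the motif, whereas the percentages count single windows, so the 2 are not alike. The E-box was found in NR1D2, PER1, BHLHE40 and CIART, with 3 copies in CIART, and in 7.26% of 35116 promoter windows of all genes. The E-prime box was found in NR1D1, PER2, CRY1 and CRY2 and in 5.34% of all windows. NR1D2 and PER3 held the D-box TTATGTAA (0.886% of all windows) and PER2 its palindromic form TTACGTAA (0.125%). The ROR element TAGGTCA (1.85% of all windows) was found in CRY2 and TGGGTCA (3.92%) in NR1D2. The cyclic AMP element TGACGTCA (1.85% of all windows) was in none of these windows of the 10 genes, and DBP held none of the motifs searched. In the 10 genes no 2 matches shared a base, and all matches are a description of the letters in these windows.

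Depth ranged from 70767 to 68296309 counts per well with a median of 38369495. The 3 wells under 10000000 counts, called shallow here, were triptolide 100 nM replicate 2 (70767, with 0 to 5 counts for each of the 10 genes), DMSO replicate 10 (460014) and triptolide 1000 nM replicate 1 (9628355). The bone and mesenchymal genes SPARC, VIM, COL1A1, RUNX2 and ALPL were at 3 TPM or more at the median of the DMSO wells (TPM, a transcript level scaled for library size and gene length), whereas COL1A2, SP7 and BGLAP were under 1 TPM. The blood, endothelial and liver markers PTPRC, CD74, PECAM1 and ALB had medians of at most 0.175 TPM, and the epithelial markers EPCAM, CDH1 and KRT19 had medians of 2.38, 0.40 and 0.070 TPM. The mitochondrial mRNA share was 0.138 to 0.367% in DMSO wells and up to 1.15% with triptolide. In these bulk libraries, fewer cells of a type and less RNA per cell cannot be told apart.

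In DMSO wells the clock genes other than CIART had median levels from 3.80 to 29.5 TPM, and CIART was far below them. Ordered by median TPM, the per-length scale, BHLHE40 came first at 29.5, then CRY1 (20.3), NR1D2 (14.1), PER1 (12.6), DBP (10.7), PER3 (9.43), NR1D1 (9.20), CRY2 (7.08), PER2 (3.80) and CIART (0.015). BHLHE40 was above CRY1 in 18 of 18 wells, NR1D1 above CRY2 in 18, CRY2 above PER2 in 18 and PER2 above CIART in 18. The neighbours between were not separated in every well: CRY1 was above NR1D2 in 11 wells, NR1D2 above PER1 in 10, PER1 above DBP in 14, DBP above PER3 in 12 and PER3 above NR1D1 in 9.

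**Figure D1:**
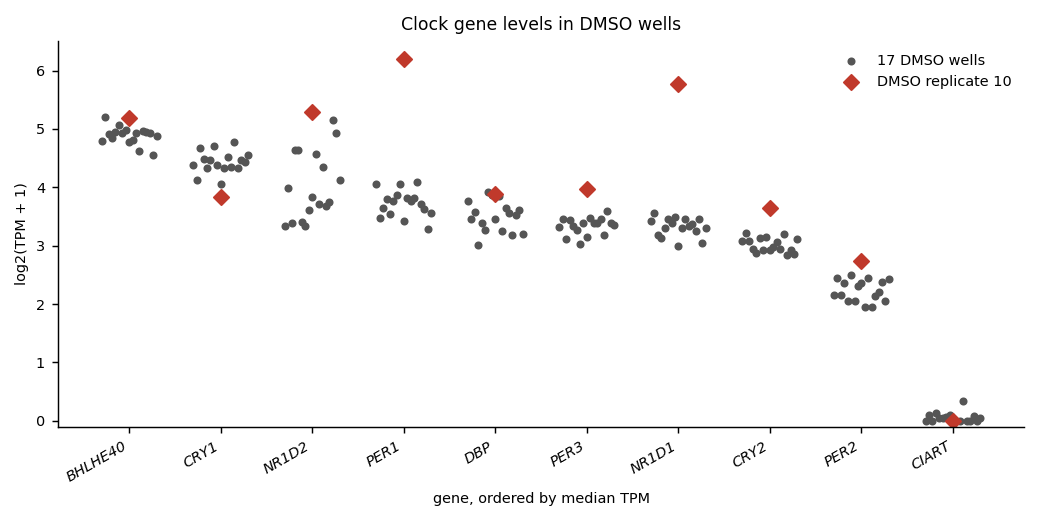
Levels of the 10 clock genes in the 18 DMSO wells, as log2(TPM + 1) on the vertical axis, with genes ordered by median TPM on the horizontal axis. Each circle is 1 of 17 wells and the diamond is DMSO replicate 10, the library of 460014 counts, which lies far above the other wells for NR1D1 (84.1 CPM from 48 counts against 12.7 to 18.5 CPM).

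DMSO replicate 10 bears on several values. NR1D1, REV-ERB alpha, stood at 84.1 CPM there (CPM, the count divided by the scaled library size and not by gene length), from 48 counts, and at 12.7 to 18.5 CPM in the other 17 DMSO wells. PER1 (45.6 CPM), PER2 (21.0), CRY2 (28.0) and DBP (19.3) also had their highest DMSO value in that well, and PER3 (21.0) and CRY1 (24.5) their lowest. The part of its low depth in these values was not tested.

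Over the other 17 DMSO wells, NR1D2 (REV-ERB beta) varied most among the members above 1 CPM. It ran from 20.7 to 76.1 CPM, a 3.68-fold range with a coefficient of variation of 42.3%, against 10.5% for NR1D1 and a median of 15.2% over 9074 genes at a mean of 5 to 100 CPM. The 2 highest NR1D2 wells, DMSO replicates 16 (76.1 CPM) and 17 (58.0 CPM), were the libraries with the longest fragments in the DMSO group (217 and 214 bases, taken from the difference between RSEM's length and effective length), and the lowest wells, replicates 1 and 3 (20.7 and 21.1 CPM), had fragments of 181 and 155 bases. The library with the shortest fragments, replicate 9 at 144 bases, was near the middle of the group for NR1D2 (33.7 CPM). The part of fragment length in NR1D2 was not tested. PER3 and CRY2 were the steadiest, with coefficients of variation of 8.48 and 8.56%.

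With homoharringtonine, most of the clock repressors stood far above DMSO, and the size of the difference changed with dose in a way that separated the members. NR1D1, PER1 and PER2 were high at every dose, NR1D2, CRY1 and PER3 were highest at 10000 nM, BHLHE40 was highest at 100 nM, and DBP lay below DMSO at 100 nM and near its upper end at 10000 nM. At an adjusted p under 0.05 in edgeR and a log2 fold change above 1, 6, 7 and 7 members were called higher than DMSO at 100, 1000 and 10000 nM, and 0 were called lower (DESeq2 called DBP lower at 100 nM). Of all genes tested, 15.6%, 21.5% and 23.6% were called higher and 19.3%, 20.9% and 23.4% lower. Because this contrast entered the choice of the genes, nothing is read from these counts. At 100, 1000 and 10000 nM, 9, 10 and 10 members passed the low-count filter. CIART passed at the upper doses only through its level with the compound, and the 7 calls at each of them include it.

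The REV-ERB genes differed in how they followed dose. NR1D1 was at 203, 224 and 249.8 CPM with 100 nM, at 547, 609.5 and 779 with 1000 nM and at 682, 685 and 697 with 10000 nM, where DMSO wells ran from 12.7 through a median of 16.3 to 84.1 CPM. All 9 treated wells were thus above every DMSO well, by log2 fold changes of 3.73, 5.24 and 5.31, which became 3.80, 5.32 and 5.39 without the shallow libraries. NR1D2 was at 66.5, 111 and 135 CPM with 100 nM, 101.1, 204 and 287 with 1000 nM and 251, 269 and 358 with 10000 nM, against 20.7, 33.4 and 76.1 as lowest, median and highest of DMSO. Its log2 fold changes were 1.57, 2.47 and 3.02, and 1 well at 100 nM lay inside the DMSO range. Within the 1000 nM wells NR1D2 had the order of fragment length (168, 206 and 214 bases), whereas within the 100 nM wells it was highest in the library with the shortest fragments (171, 184 and 190 bases for 135, 111 and 66.5 CPM). The part of fragment length was not tested.

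The period genes fell into 2 patterns. PER1, the member most often induced outside the clock, was at 154, 179 and 226 CPM with 100 nM, 419.8, 467 and 609 with 1000 nM and 323, 342 and 350.5 with 10000 nM (DMSO 21.4, 26.0 and 45.6). Its log2 fold change was 2.80, 4.21 and 3.63, so that the middle dose stood highest and no treated well overlapped another dose's wells. PER2 was at 109, 115 and 136 CPM with 100 nM, 129.95, 136 and 161 with 1000 nM and 119, 119 and 128 with 10000 nM (DMSO 12.5, 15.3 and 21.0), log2 fold changes of 2.98, 3.21 and 2.96 that were nearly level over a 100-fold range of dose. PER3, whose product is less needed for rhythms than PER1 and PER2, was inside or near the DMSO range of 21.0 to 34.0 CPM at 100 nM (23.4, 25.6 and 26.0) and 1000 nM (30.8, 31.9 and 34.7) and above it at 10000 nM (51.0, 53.2 and 53.3, log2 fold change 0.84).

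The cryptochromes, the partners of the PER proteins in repression, were both above every DMSO well at each dose. CRY1 was at 51.6, 56.7 and 65.9 CPM with 100 nM, 58.7, 74.7 and 75.04 with 1000 nM and 106, 110.2 and 112 with 10000 nM (DMSO 24.5, 33.2 and 44.6). CRY2 was at 32.7, 36.3 and 42.2 CPM with 100 nM, 42.3, 48.4 and 54.3 with 1000 nM and 44.7, 45.3 and 45.7 with 10000 nM (DMSO 15.5, 18.7 and 28.0). Thus CRY1 went from a log2 fold change of 0.74 through 0.98 to 1.61, whereas CRY2 stayed between 1.02 and 1.39.

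BHLHE40, the E-box repressor also known as DEC1 and a gene induced by hypoxia and growth signals, was highest at the lowest dose. It was at 478, 494 and 552 CPM with 100 nM, 187, 193 and 249 with 1000 nM and 74.9, 80.1 and 80.2 with 10000 nM, against 53.0, 63.3 and 74.8 in DMSO. The log2 fold change went from 3.02 to 1.73 to 0.28, and at 10000 nM it was -0.023 when libraries were scaled to mitochondrial mRNAs. DBP, the D-box activator, was below every DMSO well at 100 nM (4.26, 4.52 and 4.96 CPM against 5.73, 8.21 and 19.3). At 1000 nM it was at 10.8, 12.0 and 17.1 CPM and at 10000 nM at 17.04, 17.95 and 18.8, the latter dose above the other 17 DMSO wells (up to 12.8 CPM) but not above DMSO replicate 10.

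CIART, a repressor of CLOCK and BMAL1 with 3 E-boxes in the promoter shown above, was near the limit of detection outside homoharringtonine. It had 0 counts in 9 of the 18 DMSO wells and at most 3 in the others. Homoharringtonine at 100 nM gave 1 to 2 counts per well, whereas 1000 nM gave 18 to 19 and 10000 nM gave 19 to 25. These were 0.350, 0.414 and 0.445 CPM and 0.340, 0.503 and 0.630 CPM, above the DMSO maximum of 0.0573, and no other compound gave more than 4 counts in a well.

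**Figure D2:**
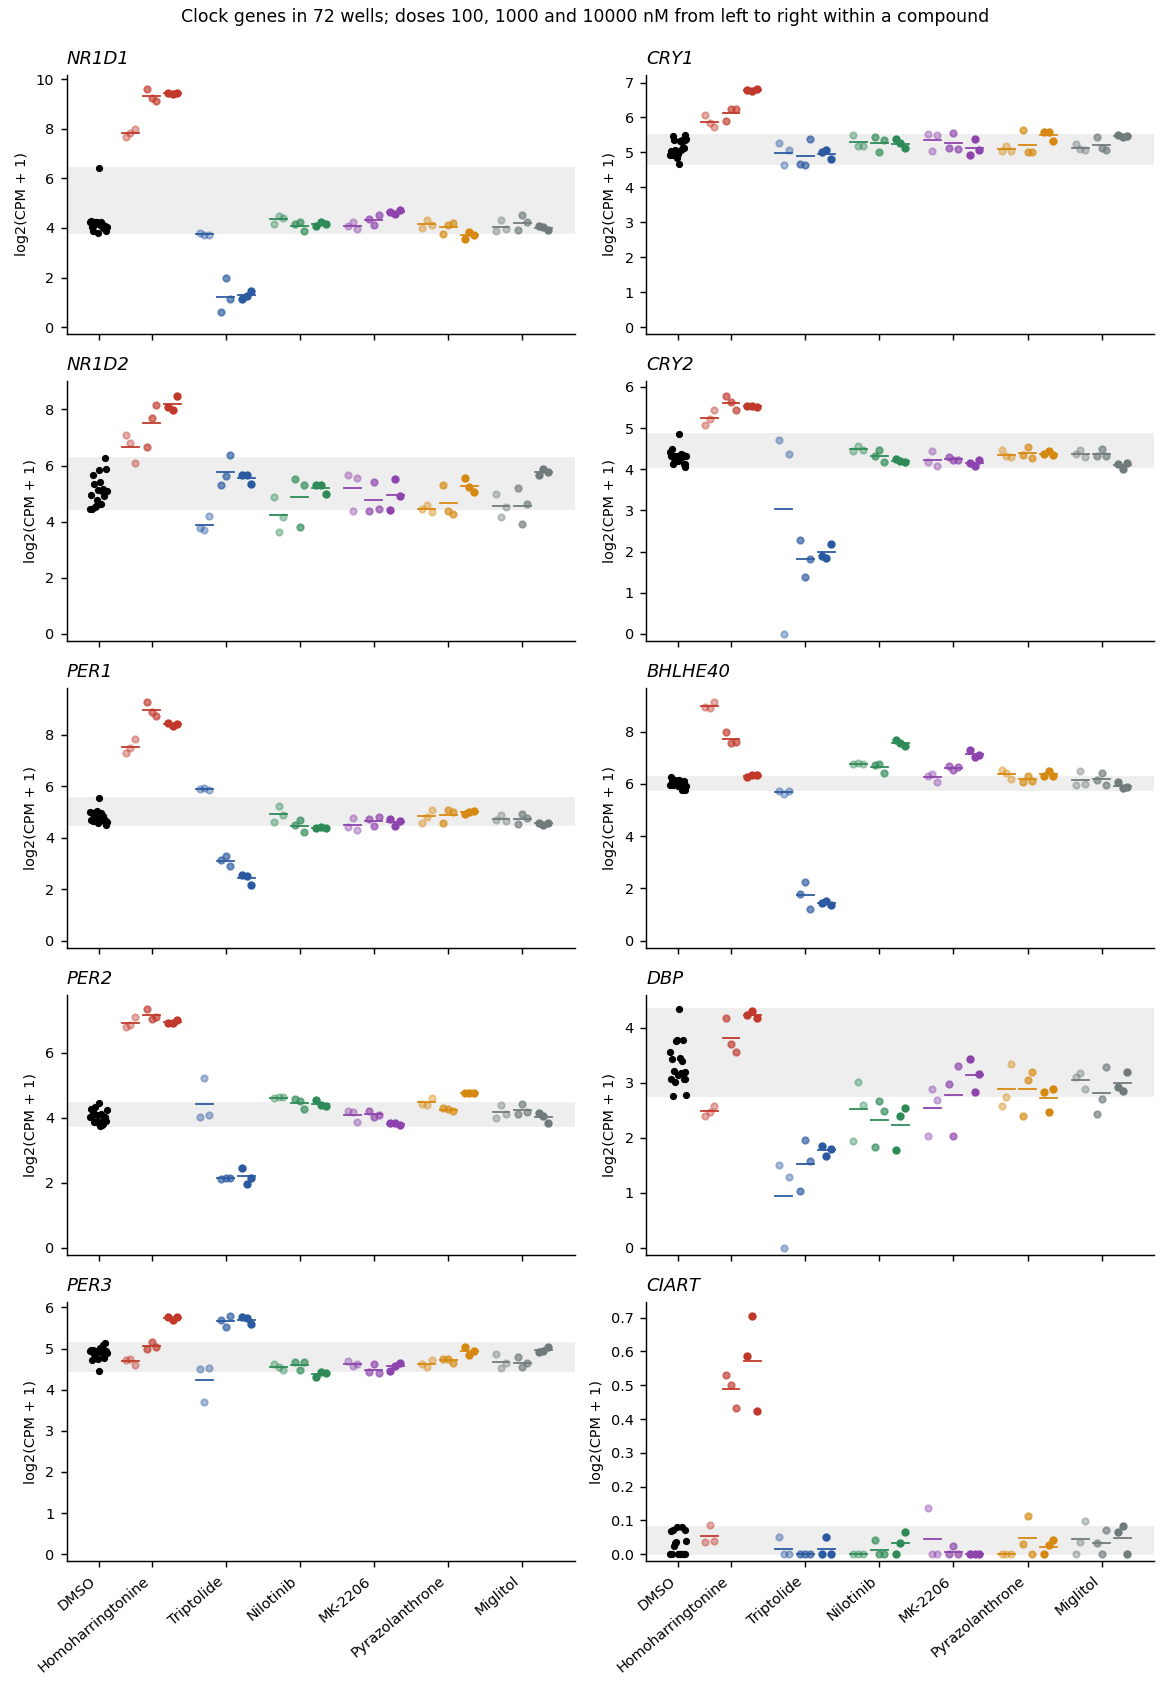
Each panel plots 1 clock gene as log2(CPM + 1) in all 72 wells, with DMSO at the left and 6 compounds to the right, each with 100, 1000 and 10000 nM from left to right and from pale to dark. Points are wells, short lines are means of 3 wells on this scale and the grey band is the range of the 18 DMSO wells. NR1D1, PER1, PER2, CRY2 and BHLHE40 lie above the band with 1000 nM homoharringtonine and below it with 1000 nM triptolide. CIART has all 3 wells above the band only with the upper 2 doses of homoharringtonine.

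Every member except DBP at 100 nM that left the DMSO range with homoharringtonine lay above it: 6, 8 and 9 members had all 3 wells above every DMSO well at the 3 doses, and 1 (DBP at 100 nM) had all 3 below. Of all genes tested, 20.1%, 21.8% and 28.7% had all 3 wells above every DMSO well, and 14.8% had all 3 below at 100 nM.

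The genes that overlap members were examined because the sources do not say whether the counting used strand. THRA, the thyroid hormone receptor gene, is transcribed toward NR1D1 on the opposite strand and shares 1075 bases with it. THRA was at 45.7 to 73.5 CPM in DMSO wells and at 6.89 to 11.2 CPM in the 9 homoharringtonine wells, so the pair moved in opposite directions there. NKIRAS1, opposite to NR1D2, was at 6.26 CPM in DMSO and 12.7 with 10000 nM homoharringtonine. A read-through gene on the same strand (ENSG00000263620) shares 5691 bases with PER1 and was at 1.70 CPM in DMSO and 4.35 with 1000 nM homoharringtonine, so reads between it and PER1 are uncertain. SPHK2, opposite to DBP over 688 bases, went from 16.5 CPM in DMSO to 3.42 with 10000 nM triptolide. The annotated RNAs that overlap PER2, PER3, CRY1 and BHLHE40 and were measured had means under 0.3 CPM in DMSO, in homoharringtonine at each dose and at 10000 nM of triptolide or nilotinib. A further RNA opposite to PER2 (ENSG00000283635, 976 shared bases) was not analysed here.

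With triptolide, 6 of the 10 clock genes fell at both 1000 and 10000 nM, while NR1D2, PER3 and CRY1 were near or above their DMSO level under the main scaling (and lower when scaled to mitochondrial mRNAs) and CIART had 0 to 1 counts per well. The calls lowered were NR1D1, PER1, PER2, CRY2, BHLHE40 and DBP (edgeR, adjusted p under 0.05 and log2 fold change below -1), 6 of 9 tested at each of these doses, where 30.4% and 30.2% of all genes tested were lowered. Raised calls numbered 0 (edgeR and DESeq2) at each, beside 13.9% and 16.2% of all genes, with 2 and 1 members higher at an unadjusted p under 0.05 in edgeR. At an adjusted p under 0.05 and any fold 7 of 9 members passed at both doses, beside 67.4% and 71.8% of all genes. At 100 nM, 1 member was raised (PER1) and 2 were lowered (NR1D2 and DBP), beside 11.4% and 20.9% of all genes. The median log2 fold change of the 9 members tested was -0.27, -2.19 and -2.13 over the 3 doses, beside -0.16, -0.21 and -0.17 over all genes tested. All these comparisons use the same 18 DMSO wells as those of the other compounds.

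Scaling matters for triptolide, since it moved the median of all genes. Relative to the main scaling, library sizes alone moved that median by -0.34, -0.46 and -0.53 over the 3 doses, and scaling to the 13 mitochondrial mRNAs moved it by -1.66, -2.47 and -2.76. Under the latter, the 6 members lowered at 1000 and 10000 nM stayed lower, NR1D2 (log2 fold changes of -1.76 and -2.35) and PER3 (-1.66 and -1.99) turned from higher to lower, and CRY1 was at -2.71 and -3.00 (adjusted p = 8.56e-12 and 6.19e-13 in edgeR). All 9 members tested were then lowered at both doses, and 8 at 100 nM. The share of all genes lowered under this scaling was not computed, and the median gene itself moved past the fold threshold. Nothing is therefore read from these counts. With library sizes alone, NR1D2 at 10000 nM was at -0.19 and CRY1 at -0.70 and -0.79 (adjusted p = 2.01e-04 and 1.21e-05).

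At 100 nM triptolide, the value of replicate 2 rested on 1 count for NR1D1, NR1D2 and PER3, 2 for CRY1, 3 for PER2, 4 for BHLHE40 and 5 for PER1, so that well adds little to the values below. NR1D1 was at 12.1 and 12.8 CPM in the deeper wells and 12.0 in replicate 2, below the DMSO median of 16.3 CPM (log2 fold change -0.47 ± 0.37 SE, adjusted p = 0.287 in edgeR). This value rests on DMSO replicate 10 and the other shallow libraries, without which the change was -0.35 with an adjusted p of 0.0406. At 1000 nM the wells were at 0.515, 1.17 and 2.91 CPM (-3.59 ± 0.49, adjusted p = 5.26e-07) and at 10000 nM at 1.19, 1.38 and 1.74 CPM (-3.64 ± 0.41, adjusted p = 1.80e-08). None of these 6 wells overlapped the DMSO range, a 12.1-fold and a 12.4-fold lower level.

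NR1D2, the other REV-ERB gene, did not follow NR1D1. It fell at 100 nM (12.8 and 17.4 CPM and 12.0 in replicate 2, all below the DMSO minimum of 20.7, log2 fold change -1.24 ± 0.39, adjusted p = 0.00963). At 1000 nM (38.1, 48.4 and 81.0 CPM, 0.65 ± 0.29, adjusted p = 0.0537) and 10000 nM (39.4, 49.4 and 49.8 CPM, 0.34 ± 0.29, adjusted p = 0.287) its wells were above the DMSO median of 33.4 and did not pass the test. Without the shallow libraries the 1000 nM change was 0.87 (adjusted p = 0.0295).

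PER1 was the only member called in opposite directions at different triptolide doses. At 100 nM it was at 56.7 and 57.7 CPM and 60.2 in replicate 2, above every DMSO well (up to 45.6), a log2 fold change of 1.11 ± 0.15 (adjusted p = 8.11e-07) that was 0.78 with library sizes alone and -0.56 when scaled to mitochondrial mRNAs. At 1000 nM it was at 6.46, 7.72 and 8.84 CPM (-1.84 ± 0.18, adjusted p = 2.28e-09) and at 10000 nM at 3.48, 4.72 and 4.94 CPM (-2.66 ± 0.18, adjusted p = 2.43e-12), below every DMSO well.

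PER2 at 100 nM triptolide was at 15.1 and 15.9 CPM in the deeper wells and 36.1 in replicate 2, the library of 70767 counts, and the change of 0.08 ± 0.17 did not pass the test (adjusted p = 0.870). At 1000 nM it was at 3.35, 3.37 and 3.42 CPM (-2.19 ± 0.16, adjusted p = 1.64e-11) and at 10000 nM at 2.90, 3.44 and 4.51 CPM (-2.13 ± 0.16, adjusted p = 2.12e-11). PER3 was higher than every DMSO well at 1000 nM (45.4, 50.7 and 54.4 CPM) and 10000 nM (47.7, 52.5 and 53.0 CPM), with log2 fold changes of 0.79 ± 0.09 and 0.78 ± 0.08 (adjusted p = 2.91e-08 and 1.02e-08), short of the fold threshold and reversed by mitochondrial scaling as given above. At 100 nM PER3 was lower (21.5 and 21.9 CPM and 12.0 in replicate 2, -0.42 ± 0.12, adjusted p = 0.00463), a call lost without replicate 1 (-0.39, adjusted p = 0.0581).

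The 2 cryptochromes parted with triptolide under the main scaling. CRY1 did not pass the test at any dose there (log2 fold changes of -0.01, -0.24 and -0.25, adjusted p = 0.951, 0.179 and 0.0896), with wells at 24.1 to 40.7 CPM over the 9 wells. It was lower at all 3 doses when scaled to mitochondrial mRNAs (-1.65 at 100 nM) and at the upper doses with library sizes alone, as given above, and without replicate 3 at 1000 nM (-0.52, adjusted p = 0.0109). CRY2 was at 1.63, 2.53 and 3.86 CPM with 1000 nM and 2.61, 2.73 and 3.56 with 10000 nM, all below the DMSO minimum of 15.5 (-2.82 ± 0.19 and -2.68 ± 0.15, adjusted p = 2.88e-12 and 4.23e-14). At 100 nM the deeper wells held 19.7 and 25.2 CPM and replicate 2 had 0 counts (0.24 ± 0.16, adjusted p = 0.198, and 0.32 with an adjusted p of 0.0289 without the shallow libraries).

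BHLHE40 fell furthest of the 10 genes. From 52.1 and 52.3 CPM and 48.2 in replicate 2 at 100 nM (-0.27 ± 0.12, adjusted p = 0.0528), it was at 1.31, 2.45 and 3.72 CPM at 1000 nM and 1.54, 1.70 and 1.89 CPM at 10000 nM, against at least 53.0 in DMSO. The log2 fold changes at the upper doses were -4.84 ± 0.23 and -5.25 ± 0.15 (adjusted p = 3.61e-15 and 3.22e-19), a 28.7-fold and a 38.1-fold lower level. DBP was below every DMSO well already at 100 nM (0, 1.43 and 1.85 CPM, -2.43 ± 0.36, adjusted p = 3.75e-06), and again at 1000 nM (1.03, 1.97 and 2.91 CPM, -2.20 ± 0.32, adjusted p = 1.58e-06) and 10000 nM (2.18, 2.45 and 2.61 CPM, -1.95 ± 0.27, adjusted p = 6.54e-07). The 0 in DBP is from replicate 2 at 100 nM, and without the shallow libraries that change was -2.38.

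Not overlapping DMSO at 1000 and 10000 nM triptolide were the same 6 lowered members on the lower side (23.1% and 24.6% of all genes tested) and PER3 on the upper side (17.9% and 24.7%). Over the 9 triptolide wells alone, the trend on log10 dose fell for 5 members by an adjusted p under 0.05 in edgeR, where 17.8% of all genes tested fell, and rose for PER3, where 6.93% rose. Per 10-fold rise in dose the log2 changes were -2.53 ± 0.32 for BHLHE40 (adjusted p = 1.74e-04), -1.91 ± 0.20 for PER1 (5.85e-05), -1.60 ± 0.29 for NR1D1 (0.00177), -1.44 ± 0.27 for CRY2 (0.00209) and -1.13 ± 0.23 for PER2 (0.00301). The trend of CRY2 was at -1.25 with an adjusted p of 0.0524 without replicate 1. PER3 rose by 0.50 ± 0.16 (adjusted p = 0.0373), a call that was lost on leaving out any 1 replicate number and with mitochondrial scaling. DBP showed no trend that passed the test (0.21 ± 0.23, adjusted p = 0.523), being already low at 100 nM, nor did NR1D2 (0.62 ± 0.28, adjusted p = 0.117) or CRY1 (-0.15 ± 0.12, adjusted p = 0.348). CRY1 did fall with mitochondrial scaling (-0.66, adjusted p = 0.00106 in edgeR). NR1D2 rose with DESeq2 (0.64, adjusted p = 0.0469) and in edgeR with no low-count filter (0.66, adjusted p = 0.0437).

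Transcript composition, a readout that did not enter the choice of genes, was compared through RSEM's mean transcript length per gene, weighted by isoform abundance. With 10000 nM triptolide, that of BHLHE40 was 2692 ± 372 bases (SD, n = 3) against 3377 ± 51 bases (n = 18), and that of DBP was 993 ± 20 bases against 1476 ± 322 bases. In both, every treated well was shorter than every DMSO well (exact two-sided permutation p = 0.0015, the smallest that 3 against 18 wells can give, adjusted p = 0.0325 over all genes tested, where 4.63% of genes passed). These were the 2 of 45 tests of members against DMSO that passed, over 9 members and 5 compounds at 10000 nM. Both genes were at under 3 CPM in the wells with 10000 nM triptolide, so few reads set the isoform estimate. The 45 include the tests of NR1D1, which could not pass because its length was the same in every group tested. A p of 0.0015 passes the adjustment only where many genes of the same comparison reach it. The tests that did not pass are therefore not read as an absence of change. NR1D1 was listed at 1 length, 2772 bases, in all groups with homoharringtonine, triptolide or DMSO.

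**Figure D3:**
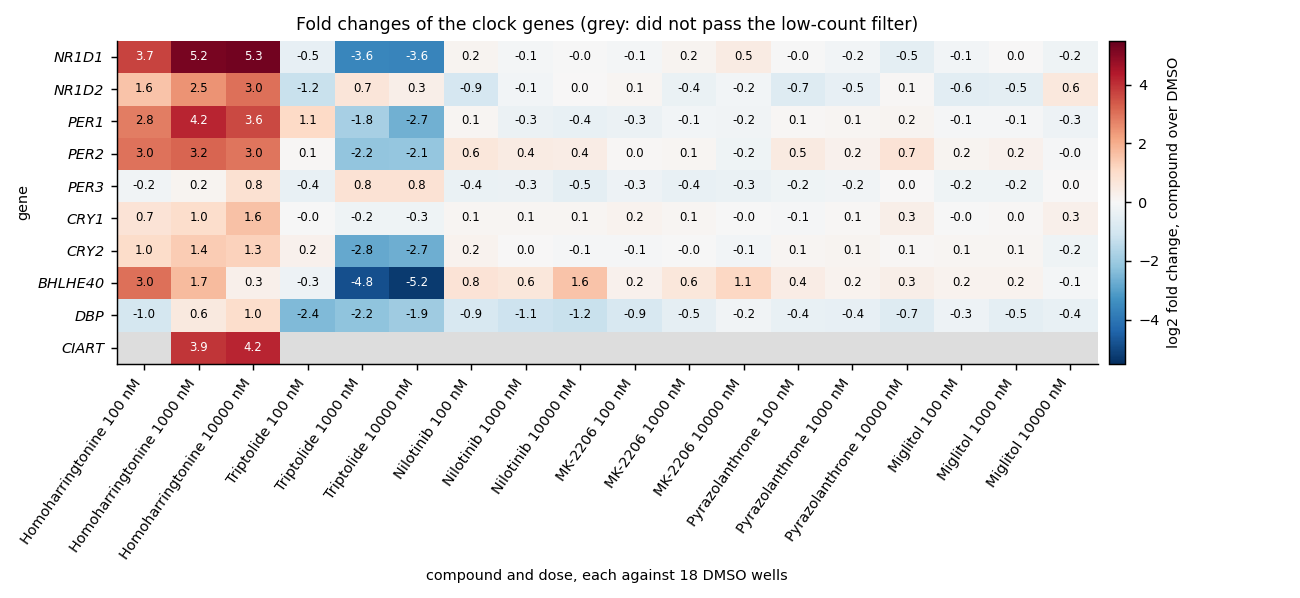
Fold changes of the 10 clock genes (rows) for 18 combinations of compound and dose (columns), as log2 of compound over the 18 shared DMSO wells, in red where higher and blue where lower, with the value printed in each cell. Grey cells did not pass the low-count filter. Homoharringtonine columns are red for NR1D1 (3.73, 5.24 and 5.31), upper triptolide columns are blue for BHLHE40 (-4.84 and -5.25), and of the other compounds nilotinib and MK-2206 at 10000 nM raise BHLHE40 (1.58 and 1.14).

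With the other 4 compounds, few tests of clock genes reached both thresholds, and more passed the adjusted p alone. Among 108 tests of members (9 genes, 12 combinations), 2 were raised, BHLHE40 with 10000 nM nilotinib and with 10000 nM MK-2206, and 2 were lowered, DBP with 1000 and 10000 nM nilotinib. Over all genes the same combinations gave 0.463% raised and 0.272% lowered, with 2.41% raised and 0.709% lowered for 10000 nM nilotinib, 0.383% lowered for 1000 nM nilotinib and 0.56% raised for 10000 nM MK-2206. At an adjusted p under 0.05 and any fold, 19 of the 108 passed, 11 up and 8 down, beside 3.72% of all tests, and 5 of the 19 were with 10000 nM nilotinib, where 14.4% of all genes passed.

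BHLHE40 accounted for most of the higher values. With nilotinib it was at 106, 106 and 109.7 CPM at 100 nM, 84.1, 105 and 108 at 1000 nM and 172, 189 and 205 at 10000 nM, all above the DMSO maximum of 74.8. The log2 fold changes were 0.76 ± 0.09 (adjusted p = 2.27e-05), 0.64 ± 0.10 (adjusted p = 5.15e-04) and 1.58 ± 0.09 (adjusted p = 2.59e-12). MK-2206 gave 66.2, 78.1 and 82.5 CPM at 100 nM, 90.9, 99.3 and 101.1 at 1000 nM and 130.2, 135 and 156 at 10000 nM, log2 fold changes of 0.24 ± 0.11 (adjusted p = 0.601), 0.63 ± 0.10 (0.0010) and 1.14 ± 0.09 (1.97e-08). Both calls at 10000 nM were lost when libraries were scaled to mitochondrial mRNAs, where MK-2206 was at 0.88 (adjusted p = 0.0963) and nilotinib at 0.86 (adjusted p = 0.00775, under the fold threshold). That scaling moved the median of all genes by 0.45 and -0.70 with 100 and 10000 nM nilotinib and called BHLHE40 (1.21) and PER2 (1.07) raised with 100 nM nilotinib instead. Pyrazolanthrone gave smaller values, 0.42 ± 0.10 at 100 nM (adjusted p = 0.0227) and 0.33 ± 0.10 at 10000 nM (adjusted p = 0.0327, and -0.063 with mitochondrial scaling).

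DBP was lower with nilotinib: 2.85, 5.07 and 7.07 CPM at 100 nM, 2.54, 4.62 and 5.40 at 1000 nM and 2.42, 4.27 and 4.81 at 10000 nM, where DMSO wells ran from 5.73 CPM. The log2 fold changes were -0.87 ± 0.27 (adjusted p = 0.0453), -1.12 ± 0.28 (0.0177) and -1.22 ± 0.26 (0.00218), and all 6 wells of the upper doses were below every DMSO well. DBP was also lower than DMSO at each dose of MK-2206 (-0.86, -0.50 and -0.19), pyrazolanthrone (-0.42, -0.45 and -0.70) and miglitol (-0.29, -0.53 and -0.40). None of these passed the test in edgeR (lowest adjusted p = 0.0718), so the direction was not particular to nilotinib. The 1000 nM nilotinib call was lost without replicate 1 (-0.85, adjusted p = 0.255), without replicate 3 (-1.21, adjusted p = 0.0561) and with mitochondrial scaling (-1.02, adjusted p = 0.321). The 10000 nM nilotinib call was also lost without replicate 1, so DBP had no call left in that setting.

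The period genes moved by less than 2-fold under the main scaling, and of the 19 tests of members that passed at any fold 8 to 10 no longer did on leaving out 1 replicate number. PER2 rose with 100 nM nilotinib (23.1, 23.7 and 24.0 CPM, 0.61 ± 0.12, adjusted p = 0.00245), 10000 nM nilotinib (19.4, 20.1 and 22.2 CPM, 0.43 ± 0.12, adjusted p = 0.0194, but -0.28 with mitochondrial scaling), 100 nM pyrazolanthrone (19.8, 20.5 and 23.3 CPM, 0.50 ± 0.13, adjusted p = 0.0250) and 10000 nM pyrazolanthrone (26.1, 26.3 and 26.3 CPM, 0.74 ± 0.12, adjusted p = 2.29e-04). The PER2 wells with 100 nM nilotinib and with 10000 nM pyrazolanthrone were all above every DMSO well (up to 21.0 CPM). PER3 fell with 10000 nM nilotinib to 18.97, 20.1 and 20.5 CPM, below every DMSO well (-0.53 ± 0.09, adjusted p = 3.06e-04), with 100 nM nilotinib (-0.36 ± 0.10, adjusted p = 0.0185, but 0.10 with mitochondrial scaling) and with MK-2206 at 1000 nM (-0.42 ± 0.10, adjusted p = 0.0245) and 10000 nM (-0.35 ± 0.10, adjusted p = 0.0434). PER1 fell with 10000 nM nilotinib (19.9, 20.0 and 20.2 CPM, -0.42 ± 0.14, adjusted p = 0.0424), again below every DMSO well. With mitochondrial scaling, PER3 (-1.22, adjusted p = 5.59e-04 in edgeR) and PER1 (-1.16, adjusted p = 0.0069) passed both thresholds with 10000 nM nilotinib. At that dose nilotinib left 3 members below every DMSO well (PER1, PER3 and DBP; 3.24% of all genes tested) and 1 above (BHLHE40; 5.54%).

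NR1D1 passed the test with none of these 4 compounds (12 combinations, log2 fold changes from -0.54 to 0.47). MK-2206 at 10000 nM gave 22.8, 24.0 and 25.4 CPM, above the 17 deeper DMSO wells (up to 18.5) and below DMSO replicate 10. Its log2 fold change of 0.47 ± 0.28 (adjusted p = 0.561) became 0.59 with an adjusted p of 0.0011 without the shallow libraries. Pyrazolanthrone at 10000 nM gave 10.8, 12.2 and 13.4 CPM, at or under the DMSO minimum of 12.7 in 2 of 3 wells, and its change of -0.54 ± 0.30 (adjusted p = 0.284) became -0.44 with an adjusted p of 0.0116. NR1D2, CRY1 and CRY2 did not pass the test in any of the 12 combinations under the main scaling. With mitochondrial scaling all 3 were lower with 10000 nM nilotinib (-0.58, -0.57 and -0.80, adjusted p = 0.0224, 0.0143 and 0.0191). Miglitol gave 0 of 27 calls at an adjusted p under 0.05 in edgeR (5 at an unadjusted p under 0.05) and 0 of 30 in DESeq2 (7 at an unadjusted p under 0.05). In an edgeR fit with a replicate block and DMSO replicates 1 to 3 only, NR1D2 was called raised with 10000 nM miglitol (1.14, adjusted p = 7.27e-05).

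Likeness of pattern was described over the means of the 19 conditions, as Pearson's r of mean log2(CPM + 1), with no test, since all conditions share 1 normalization and a few extreme conditions set the values. NR1D1 and PER1 (r = 0.96), NR1D1 and PER2 (0.96) and PER1 and PER2 (0.96) were the most alike pairs of members, followed by NR1D1 and CRY1 (0.90). PER3 and BHLHE40 were the least alike (-0.64), and NR1D1 and PER3 were unrelated (0.03). Among 15517 protein-coding genes, the 5 most like NR1D1 were FOS (0.99), NOCT (0.99), ZNF79 (0.99), C3orf62 (0.98) and ZNF57 (0.98). The gene most like each other member was DPP8 for NR1D2 (0.98), RBM4 for PER1 (0.99), ZFAND2A for PER2 (0.98), SLTM for PER3 (0.95), CFAP69 for CRY1 (0.98), MTG2 for CRY2 (0.995), ITPRIP for BHLHE40 (0.99), DOCK3 for DBP (0.96) and SGCZ for CIART (0.99).

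The rest of the clock pathway was counted in 4 lists of 25 genes, of which 24 passed the low-count filter and were tested. With triptolide, 0, 2 and 2 were raised and 9, 14 and 15 lowered over the 3 doses, beside 11.4%, 13.9% and 16.2% raised and 20.9%, 30.4% and 30.2% lowered of all genes. The 0 raised at 100 nM was the same in DESeq2, with 3 genes higher at an unadjusted p under 0.05 in edgeR. With homoharringtonine, 8, 11 and 11 were called higher and 3, 4 and 4 lower, beside 15.6%, 21.5% and 23.6% higher and 19.3%, 20.9% and 23.4% lower of all genes. The other 4 compounds gave 0 calls in 288 tests in edgeR and 0 of 300 in DESeq2 (62 and 69 at an unadjusted p under 0.05, and 14 and 26 at an adjusted p under 0.05 and any fold, where 3.72% of all tests passed in edgeR).

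Among the activators (6 tested, among them CLOCK, BMAL1, NPAS2 and BMAL2), 10000 nM triptolide raised 1 and lowered 3. BMAL1, the partner of CLOCK and the target of the REV-ERB proteins, fell most (-2.47, adjusted p = 1.41e-13 in edgeR) and BMAL2 rose most (1.37, adjusted p = 2.22e-08). With 10000 nM homoharringtonine the extremes were RORA (2.05), which activates BMAL1, and NPAS2 (-1.73), a stand-in for CLOCK, and BMAL1 stood at 2.00. Among other repressors and PAR bZIP factors (6 tested), triptolide at this dose raised 1 and lowered 4, from TIMELESS at 1.62 (adjusted p = 2.30e-14) to NFIL3, the D-box repressor, at -6.47 (adjusted p = 2.12e-14). Homoharringtonine ran from HLF, a D-box activator like DBP, at 2.72 to CIPC, a CLOCK inhibitor, at -1.09.

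Of 8 kinases, ligases and proteases that act on clock proteins, 10000 nM triptolide raised 0 and lowered 4. CSNK1E, a kinase of the PER proteins, had the highest value there at 0.26 (adjusted p = 0.0269), and with homoharringtonine it had the lowest of the 8 at -1.50. The 4 rhythmic outputs were all lowered by triptolide at this dose, from NAMPT, the enzyme of NAD salvage, at -1.65 (adjusted p = 8.35e-05) to WEE1, the mitotic kinase, at -6.21 (adjusted p = 4.43e-13). Homoharringtonine gave 3 of 4 higher, with NOCT, a rhythmic phosphatase and one of the genes most like NR1D1, at 4.26 and WEE1 at -0.10. These values share the DMSO wells, so the opposite sides are given as each compound's own values.

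**Figure D4:**
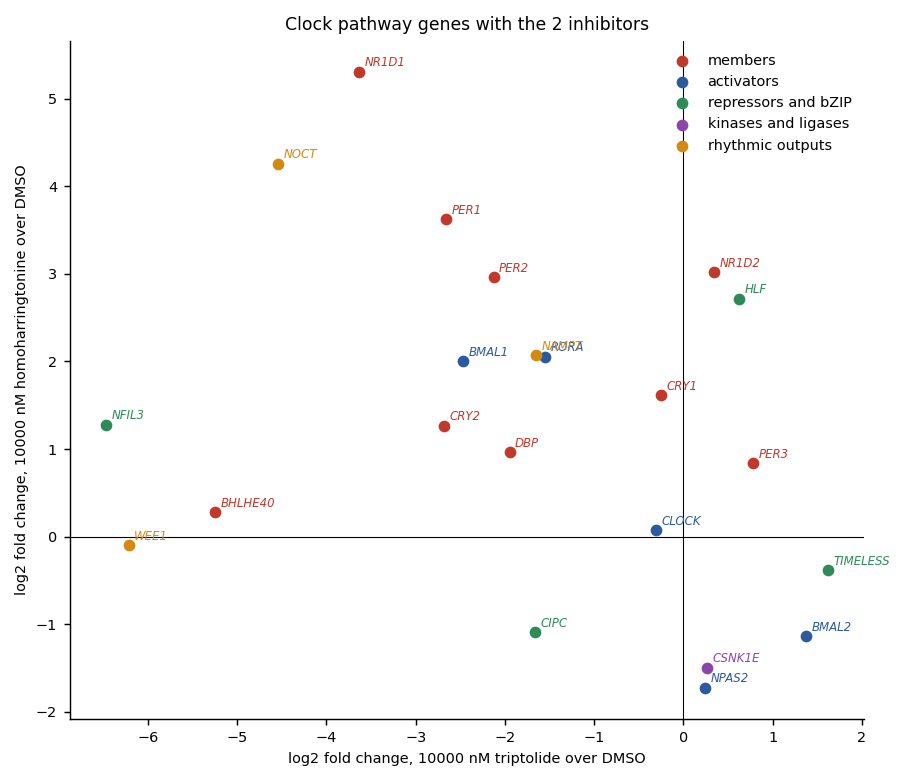
Clock genes that passed the low-count filter and the pathway genes named in the text at 10000 nM, with the log2 fold change of triptolide over DMSO on the horizontal axis and that of homoharringtonine over the same DMSO wells on the vertical axis, 1 point per gene and 1 colour per list. NR1D1 (-3.64 and 5.31), NOCT (-4.54 and 4.26) and PER1 (-2.66 and 3.63) lie at the upper left, BHLHE40 (-5.25 and 0.28) and WEE1 (-6.21 and -0.10) at the far left and PER3 (0.78 and 0.84) and NR1D2 (0.34 and 3.02) at the right of 0.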

How the data were processed

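Poly(A) RNA-seq libraries from 72 wells of U2OS cells were used, with compound, dose and replicate number taken from the labels. Libraries were made with a stranded TruSeq kit. The authors ran RSEM on GRCh38 (the submitters' notes also name HTSeq and DESeq2), and the RSEM version, annotation and strand setting are not given in the sources used here. The authors' files give, per gene, deposited expected counts (RSEM's estimated reads, not normalized), TPM and FPKM values (scaled to gene length and library; FPKM was not used here) and a deposited transcript length in bases, plain and effective. Symbols and positions came from GENCODE 44, which held 56104 of 60371 identifiers, and promoter sequences from RefSeq.

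After rounding, expected counts entered edgeR 4.0.16 under R 4.3.3 (TMM, filterByExpr with a smallest count of 10, quasi-likelihood test, Benjamini-Hochberg adjustment over all genes tested), the 3 wells of each compound and dose against the 18 DMSO wells. Genes were called at an adjusted p under 0.05 with at least a 2-fold difference (1 on the log2 scale), and dose trends over the 9 triptolide wells needed the adjusted p alone. On simulated counts with 200 changed genes, the edgeR and DESeq2 fits and the trend fit were tested before use. CPM used TMM factors over all 72 wells. Log2 levels for likeness used a pseudocount of 1 CPM. Mean transcript length was compared by exact two-sided permutation tests in Python 3.11.15 with scipy 1.17.1. Their p-values had been planned to be adjusted over the members and compounds and were adjusted over all genes of each comparison instead. Alternatives were DESeq2 1.42.0, library sizes without TMM, scaling to 13 mitochondrial mRNAs, no low-count filter, leaving out libraries under 10000000 counts, each replicate left out and a replicate block.

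The 10 genes, the pathway lists and the markers were chosen with earlier results of these data known. Named were all members, the highest and lowest gene of each pathway list at 10000 nM of triptolide and homoharringtonine, genes that overlap a member, and the genes most like each member (5 for NR1D1). 1 of these genes is not reported here. BMAL1 with homoharringtonine was named in addition, after its value was seen. Low counts such as those of CIART carry at least Poisson counting error, and PCR duplicates were not told apart.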

Additional observations from a re-analysis of the deposited data

Results flagged for a closer look

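For 5 clock genes, homoharringtonine and triptolide at 1 dose lay on opposite sides of all 18 DMSO wells. All 3 wells with homoharringtonine were above, and all 3 with triptolide below, every DMSO well. Of all genes tested, 21.8% and 28.7% lay above with homoharringtonine at 1000 and 10000 nM. With triptolide at these doses, 23.1% and 24.6% lay below. The share of all genes with both was not computed, so nothing is read from the count of 5. The difference between the compounds was not tested, since homoharringtonine entered the choice of the genes and both are set against the same DMSO wells.

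NR1D1 had a mean of 645 CPM with 1000 nM homoharringtonine and 1.53 with triptolide, and of 688 and 1.44 at 10000 nM, where DMSO spanned 12.7 to 84.1. The means of PER1 were 499 and 7.67 CPM at 1000 nM and 339 and 4.38 at 10000 nM (DMSO 21.4 to 45.6). For PER2 they were 142 and 3.38 CPM at 1000 nM and 122 and 3.62 at 10000 nM (DMSO 12.5 to 21.0), and for CRY2 48.3 and 2.67 and then 45.2 and 2.97 (DMSO 15.5 to 28.0).

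BHLHE40 was the 1 gene of the 10 with this pattern at every dose. Its means were 508 and 50.9 CPM at 100 nM, 210 and 2.49 at 1000 nM and 78.4 and 1.71 at 10000 nM, with DMSO from 53.0 to 74.8 CPM. At 100 nM the triptolide wells lay just under the DMSO range. Their log2 fold change of -0.27 did not pass the test (adjusted p = 0.0528 in edgeR), and replicate 2 there is the library of 70767 counts. At 10000 nM the homoharringtonine wells lay just above the DMSO range. Their log2 fold change was 0.28, and -0.023 with mitochondrial scaling.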

How the results depend on the processing

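Replicate numbers were not taken as pairs. Departures of wells from their group means correlated by -0.051 on average (-0.78 to 0.77) in 52 pairs of wells with the same number. In 104 pairs with different numbers the average was 0.024 (-0.84 to 0.85). Of the DMSO wells only replicates 1 to 3 entered these pairs, and a batch shared by wells was not tested. In a fit with the replicate block (compound wells and DMSO replicates 1 to 3), members raised at 100 nM triptolide went from 1 to 0 and those lowered from 2 to 1, members raised at 1000 nM triptolide went from 0 to 1, members lowered with 100 nM homoharringtonine from 0 to 1, those lowered with the other 4 compounds from 2 to 1, and those rising with triptolide dose from 1 to 0. The block fit also called NR1D2 raised with 10000 nM miglitol (1.14, adjusted p = 7.27e-05 in edgeR), beside the 2 BHLHE40 calls.

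Members raised at 100 nM triptolide were also 0 with library sizes alone and with mitochondrial scaling, and members lowered there were 8 with mitochondrial scaling. The shares of all genes called under these alternatives were not computed. Members lowered with 100 nM homoharringtonine were 1 with DESeq2, library sizes alone and mitochondrial scaling. Members rising with triptolide dose were 2 with DESeq2 and with no low-count filter and 0 with mitochondrial scaling. CRY1 joined the members falling with triptolide dose under mitochondrial scaling. Leaving out each replicate number in turn gave 1 to 2 members lowered at 100 nM triptolide, 0 to 1 with 100 nM homoharringtonine, 1 to 2 with the other 4 compounds, 4 to 5 falling and 0 to 0 rising with triptolide dose, and 5 to 6 and 7 to 8 raised with 100 and 1000 nM homoharringtonine. The 6 lowered at 1000 and at 10000 nM triptolide numbered 6 under every one of these omissions. Without replicate 1 both DBP calls with nilotinib were lost, and the lowered call with the other 4 compounds was NR1D2 with 100 nM nilotinib (-1.27). The 2 shifted transcript lengths numbered 2 without libraries under 10000000 counts and with effective length. The cause of these changes was not tested.

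Log2 fold changes with triptolide or homoharringtonine, and those of the 19 that passed with the other 4 compounds, turned sign as follows. With mitochondrial scaling they were -1.76 and -2.35 for NR1D2 at 1000 and 10000 nM triptolide, -0.56, -1.56 and -1.48 for PER1, PER2 and CRY2 at 100 nM triptolide, -1.66 and -1.99 for PER3 at 1000 and 10000 nM triptolide, -0.28 for PER2 with 10000 nM nilotinib, 0.10 for PER3 with 100 nM nilotinib, and -0.023 and -0.063 for BHLHE40 with 10000 nM homoharringtonine and pyrazolanthrone. With library sizes alone they were -0.19 for NR1D2 at 10000 nM triptolide and -0.25 and -0.10 for PER2 and CRY2 at 100 nM. PER2 at 100 nM triptolide was at -0.0065 with no filter and -0.15 with the block, CRY2 at -0.12 with the block, and CRY1 at 0.0079 without shallow libraries, 0.048 with the block and -0.092 to 0.076 on leaving out each replicate. Without the 3 shallow libraries no member called with triptolide changed direction.

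Of the 89 tests with the other 4 compounds that did not pass, 24 turned sign with mitochondrial scaling, and 2 of these then passed (CRY1 and NR1D2 with 10000 nM nilotinib). With the block 17 turned sign and 10 of the 89 passed, and without replicate 1 NR1D2 with 100 nM nilotinib passed (-1.27).

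Low counts limit CIART everywhere and all members in triptolide 100 nM replicate 2 (0 to 5 counts) and DMSO replicate 10. The other 4 compounds' calls at any fold were unsteady: of 19, leaving out 1 replicate lost 8 to 10, the block lost 13, and mitochondrial scaling lost 10 and reversed 3.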
